A study of Mus musculus with 14 samples.

Results

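Chemokines are small secreted proteins that guide leukocytes through tissue, and they act through G protein-coupled receptors on the cells they attract. The CC and CXC families are named for the spacing of the first cysteines, and the receptors are named for the family they bind. In lung tumors both epithelial tumor cells and macrophages can make chemokines, so the level of each gene in a tumor depends on which cells contributed RNA as well as on how strongly the gene was transcribed. In bulk samples of this kind, fewer cells of a type and less RNA per cell cannot be told apart.

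The 52 genes described here are the protein-coding genes of the deposited count table whose mouse symbol is Ccl, Cxcl, Ccr or Cxcr followed by a number. They were 52 of 52550 genes in the table, and comprised 23 CC ligands, 12 CXC ligands, 11 CC receptors and 6 CXC receptors. Cxcl11, which the annotation lists as a polymorphic pseudogene, and the Ccl19 pseudogenes were not taken. RNA was sequenced from 6 KPY-Ctrl tumors and 8 KPY-Setd2KO tumors of mouse lung. Both groups carried the engineered alleles of the KPY model, among them Trp53 flox/flox and a Cre-dependent YFP reporter in a mixed genetic background, and both were started by intubation with a lentivirus that expresses Cre, Cas9 and a guide RNA. The guide was sgBGal in KPY-Ctrl and sgSetd2 in KPY-Setd2KO, so that the alleles of the model, loss of p53, Cre and Cas9 were common to all tumors and only the guide differed. According to the study's methods single tumors were dissected and digested, and live YFP-positive cells were sorted; the labels describe RNA of cell lines and another RNA kit, and this conflict was not resolved. For the age of the mice the study gives only an upper bound at tumor start, and the age at collection of each tumor is not stated. Fewer mice than tumors were used per genotype, which mouse gave which tumor is not stated, and the tests took each tumor as independent.

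The libraries held 20072236 to 51828846 counts. Levels are given as CPM, the count scaled to library size, after TMM normalization. Setd2, the targeted gene, spanned 41.9 to 63.6 CPM in the KPY-Ctrl tumors and 17.9 to 47.4 CPM in the KPY-Setd2KO tumors, so the genotypes overlapped. The RNA of the macrophage marker Csf1r, the receptor for colony-stimulating factor 1, split the tumors at its largest gap. It lay between 191 and 405 CPM in 7 tumors, KPY-Ctrl replicates 1, 2 and 6 and KPY-Setd2KO replicates 1 to 4, and between 5.49 and 34.6 CPM in the other 7. Epcam, an adhesion molecule of epithelial cells, lay between 72.2 and 285 CPM in the former tumors and between 464 and 843 CPM in the latter. Of the 15 macrophage markers listed for this comparison all were tested, and their summed level was 49078 CPM or more in the 7 tumors high in Csf1r and 14580 CPM or less in the others. The lowest sum was 2001 CPM, in KPY-Setd2KO replicate 5, and most of it was Lyz2, which was at 1689 CPM or more in every tumor. The lowest levels of the other markers ran from 0.507 CPM for C1qc to 142 CPM for Chil3, with 2.38 CPM for Adgre1. Which cells the Lyz2 RNA came from was not tested. Every library held some RNA of the listed macrophage markers beside epithelial RNA, and each genotype contributed tumors to both ends.

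Most chemokine genes gave RNA in some of the tumors. A gene was counted as found in a tumor where it reached 0.5 CPM. By this measure 18 of the 52 genes were found in every tumor, 22 in some and 12 in none. All 12 CXC ligands were found in at least 1 tumor, 6 of them in every tumor, and 7 of the 23 CC ligands were found in every tumor. Of the 17 receptors, 5 were found in every tumor, among them Ccr1, Cxcr1, Cxcr2 and Cxcr4.

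The genes found in no tumor included Ccr3, the eotaxin receptor of eosinophils, with a total of 17 counts over all tumors, and Ccl11, an eotaxin ligand, with 11. Cxcr3, which guides activated T cells and binds Cxcl9 and Cxcl10, had a total of 24 counts and no more than 10 in any tumor. Ccr6, the receptor of Ccl20, had 40 counts in total and no more than 11 in a tumor. Ccr8, a receptor of regulatory T cells, had 15 and Ccl19, a lymph node ligand of Ccr7, had 6. Ccl26 and Ccl27b had no count in any tumor, where 3 counts, the limit that a count of 0 allows, correspond to between 0.0468 and 0.155 CPM. These limits cover counting error only, and the related genes Ccl27a and Ccl27b, Ccl21a and Ccl21b, and Ccr1 and Ccr1l1 could share reads. Ccl1, Ccl21b, Ccr1l1 and Ccr10 complete the 12, with no more than 56 counts each in total. Markers of other leukocytes were uneven. Among T-cell markers Cd3e was at no more than 1.12 CPM and at 0 in 4 tumors, Cd3d lay between 1.21 and 4.34 CPM, and Cd2 reached 533 CPM. The summed level of 10 neutrophil markers lay between 3.94 and 145 CPM, with Ly6g at no more than 0.0607 CPM and Mmp8 at up to 130 CPM.

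A further 4 members were found in some tumors but did not pass the filter on low counts used for the tests below. Cxcl13, which draws B cells through Cxcr5, was found in 5 tumors, all of them KPY-Setd2KO: replicates 1, 2, 3, 4 and 7, at 0.630 to 3.45 CPM. No KPY-Ctrl tumor had more than 0.0304 CPM of it. Ccl8, a monocyte attractant, was found in 4 tumors, also all KPY-Setd2KO, at 0.571 to 4.15 CPM, and KPY-Ctrl reached 0.286 CPM. These are levels of up to 107 and 116 counts in a tumor, and the genotypes overlapped in both genes. When the tests below were run with no filter, both genes rose along Csf1r RNA and fell along Epcam RNA. Neither was called by genotype. Ccl21a, a ligand of Ccr7, was found in KPY-Ctrl replicate 6 and KPY-Setd2KO replicate 7, and Cxcr6 in KPY-Setd2KO replicate 7 alone, at 0.519 CPM.

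Levels differed by orders of magnitude between members. To compare genes, mean CPM was divided by the length of all exons of the gene in kilobases. On this scale the CC ligand Ccl6, which attracts macrophages and lymphocytes in mice, had the highest level of the family, with 2506 CPM per kb. The CXC ligand Cxcl15, known as lungkine and made by lung epithelium, followed with 754 CPM per kb, more than the 168 CPM per kb of Epcam. Next came Cxcl2, a neutrophil attractant, with 144 CPM per kb, Ccl17, a ligand of Ccr4, with 114, and Ccl3, an inflammatory ligand of Ccr1, with 75.3. The most abundant receptors were Cxcr4, the receptor of Cxcl12, with 42.7 CPM per kb, Cxcr1 with 27.3 and Ccr1 with 20.4. Cxcl12, the ligand of Cxcr4, had a mean of 0.109 CPM per kb and was found in 7 tumors.

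The members were then compared across tumors. For each gene, edgeR fitted the change in log2 level for each doubling of Csf1r RNA or of Epcam RNA, with genotype as a term, and p-values were adjusted over all genes tested. After a filter on low counts 36 members were tested: 15 CC ligands, 11 CXC ligands, 6 CC receptors and 4 CXC receptors.

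Along Csf1r RNA, 15 of the 36 members rose and 3 fell, while 28.1% of all genes tested rose and 28.5% fell (adjusted p under 0.05). The genes that rose were Ccl3, Ccl4, Ccl6, Ccl9, Ccl17, Ccl22, Cxcl1, Cxcl2, Cxcl9, Cxcl10, Cxcl14, Ccr1, Ccr2, Cxcr1 and Cxcr4. Those that fell were Cxcl5, Cxcl15 and Cxcl17. Along Epcam RNA, 6 members rose, against 29% of all genes, and 12 fell, against 26.6%. The 6 were Ccl20, Ccl27a, Cxcl5, Cxcl15, Cxcl17 and Ccr4. All 12 that fell along Epcam were among the 15 that rose along Csf1r, and all 3 that fell along Csf1r rose along Epcam. Both slopes were fitted on the same tumors, in which Csf1r and Epcam ran in opposite directions, so they are not independent of each other. The median slope on Csf1r was 0.19 over the members tested and -0.0065 over all genes, and the median slope on Epcam was -0.17 over the members and 0.025 over all genes. A total of 15 members was called on neither gene, among them Ccl2, Ccl5, Ccl7, Ccl12, Ccl24, Ccl25, Ccl28, Cxcl3, Cxcl12, Cxcl16, Ccr7, Ccr9, Cxcr2 and Cxcr5.

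**Figure D1:**
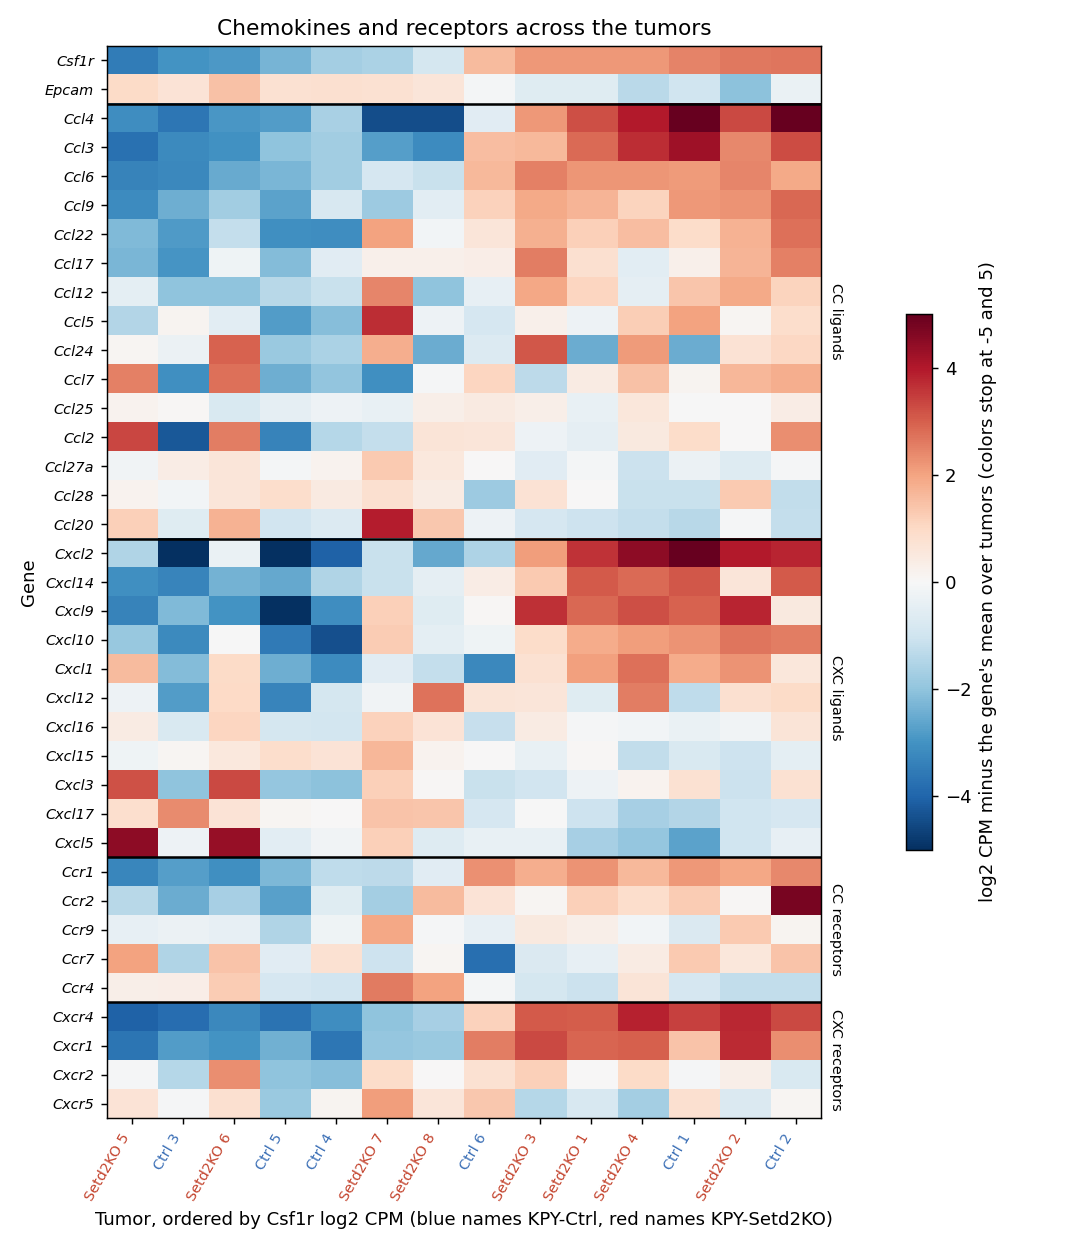
Log2 CPM of the 35 plotted members, and of Csf1r and Epcam, in each of the 14 tumors, as the difference from the gene's mean over tumors (red above, blue below). Tumors run from the lowest Csf1r on the left to the highest on the right, and genes are ordered within each class by their slope on Csf1r. Genes at the top of each class, such as Ccl4, Cxcl2 and Cxcr4, pass from blue to red with Csf1r, whereas Cxcl5 and Cxcl3 are reddest in KPY-Setd2KO replicates 5 and 6 at the left.

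Among the CC ligands, Ccl6 showed the tightest relation to Csf1r. Its lowest, median and highest levels were 201, 3204 and 8262 CPM in KPY-Ctrl, against 185, 4850 and 10753 CPM in KPY-Setd2KO. The 7 tumors with the most Ccl6 were the 7 with the most Csf1r. The slope was 0.94 on Csf1r (SE 0.04, adjusted p = 3.5e-10) and -2.10 on Epcam (SE 0.36, adjusted p = 0.00029). Ccl9, a neighbor of Ccl6 on chromosome 11 and a ligand of Ccr1, ranged from 7.27 to 475 CPM with a slope on Csf1r of 0.83 (SE 0.06, adjusted p = 2.3e-08). Ccl3 had a lowest, median and highest level of 1.42, 21.3 and 253 CPM in KPY-Ctrl, against 0.942, 21.3 and 170 CPM in KPY-Setd2KO. Its slope on Epcam was -2.86 (SE 0.41, adjusted p = 8.5e-05), the smallest p of any member on that gene.

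Ccl4, the partner of Ccl3, reached 61.3 CPM in KPY-Ctrl replicate 2 and was found in 7 tumors, which were the 7 highest in Csf1r. Ccl17 was found in every tumor, at 4.39 to 194 CPM in KPY-Ctrl, against 6.93 to 201 CPM in KPY-Setd2KO. Its slope on Csf1r was shallower, at 0.56 (SE 0.11, adjusted p = 0.00074), and only 5 of its 7 highest tumors were among the 7 highest in Csf1r. KPY-Setd2KO replicate 8, with 40.5 CPM of Ccl17 and 34.6 CPM of Csf1r, lay near KPY-Ctrl replicate 6, with 43.1 CPM of Ccl17 and 191 CPM of Csf1r. Ccl22, the other ligand of Ccr4, ranged from 0.453 to 29.7 CPM with a slope on Csf1r of 0.67 (SE 0.15, adjusted p = 0.0020). That slope was 1.00 in KPY-Ctrl (adjusted p = 0.00094) and 0.37 in KPY-Setd2KO (adjusted p = 0.069), a difference that was not called.

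Of the CC receptors, Ccr1, which binds Ccl3, Ccl6 and Ccl9 and is carried by monocytes and macrophages, followed Csf1r most closely. The KPY-Ctrl tumors spanned 3.75 to 135 CPM (median 61.8) and the KPY-Setd2KO tumors 2.62 to 120 CPM (median 47.1), with a slope of 0.92 (SE 0.05, adjusted p = 6.6e-10). Ccr2, the Ccl2 receptor of recruited monocytes, was at 71.9 CPM in KPY-Ctrl replicate 2 and at no more than 7.95 CPM in any other tumor. Its slope of 0.71 (SE 0.20, adjusted p = 0.0071) was 0.46 without that tumor and still passed, with an adjusted p no higher than 0.027 whichever tumor was left out. By genotype the slope was 1.12 in KPY-Ctrl (adjusted p = 0.0016) and 0.31 in KPY-Setd2KO (adjusted p = 0.21), a difference that was not called. Ccr2 was not called along Csf1r in KPY-Setd2KO alone, with the replicate number as a block or within the tumors high and low in Csf1r. In KPY-Ctrl replicate 2 the summed level of 8 fibroblast markers was 91.4 CPM, against 30.3 CPM or less in the others, and its part in these values was not tested.

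Outside the run on chromosome 5 described further on, the CXC ligands that rose along Csf1r were Cxcl9, Cxcl10 and Cxcl14. Cxcl9 and Cxcl10 are induced by interferon gamma and signal through Cxcr3. Cxcl9 spanned 0.0298 to 41.5 CPM in the KPY-Ctrl tumors (median 3.33) and had a median of 25.7 CPM in the KPY-Setd2KO tumors, with a slope of 0.99 (SE 0.15, adjusted p = 8.2e-05). Cxcl10, whose exons overlap those of Art3 on the opposite strand, reached 32.7 CPM, with a slope of 0.75 (SE 0.15, adjusted p = 0.00065). Cxcl14, a chemokine found in many epithelia, had its 7 highest tumors among the 7 highest in Csf1r and a slope of 1.00 (SE 0.10, adjusted p = 1.3e-06). Among ligands called on neither gene, Ccl5, an attractant of T cells and monocytes, was highest in KPY-Setd2KO replicate 7 at 4.82 CPM, and Ccl25 varied least, between 1.43 and 3.65 CPM.

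The CXC receptors divided into a pair that tracked Csf1r and a pair that did not. Cxcr4 had a lowest, median and highest level of 1.08, 18.6 and 170 CPM in KPY-Ctrl, against 0.922, 66.7 and 226 CPM in KPY-Setd2KO. Its slope of 1.35 on Csf1r (SE 0.06, adjusted p = 2.6e-10) had the smallest p of any member, and that on Epcam was -3.12 (SE 0.47, adjusted p = 0.00011). Cxcr1, a receptor best known on neutrophils, ranged from 0.796 to 141 CPM with a slope on Csf1r of 1.17 (SE 0.10, adjusted p = 2.5e-07). The neutrophil markers Mmp8, Csf3r and S100a8 rose along Csf1r as well (slopes 1.19, 0.71 and 0.37), S100a9 was not called, Retnlg, Mmp9 and Ltf fell, and Ly6g was too low to test. The part of these markers in the level of Cxcr1 was not tested. Cxcr2, which binds Cxcl1, Cxcl2, Cxcl3 and Cxcl5, ranged from 1.86 to 41.9 CPM with a slope of 0.064 (SE 0.11, adjusted p = 0.64), and was highest in KPY-Setd2KO replicate 6. Cxcr5, the B-cell receptor of Cxcl13, stayed at or below 1.71 CPM.

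**Figure D2:**
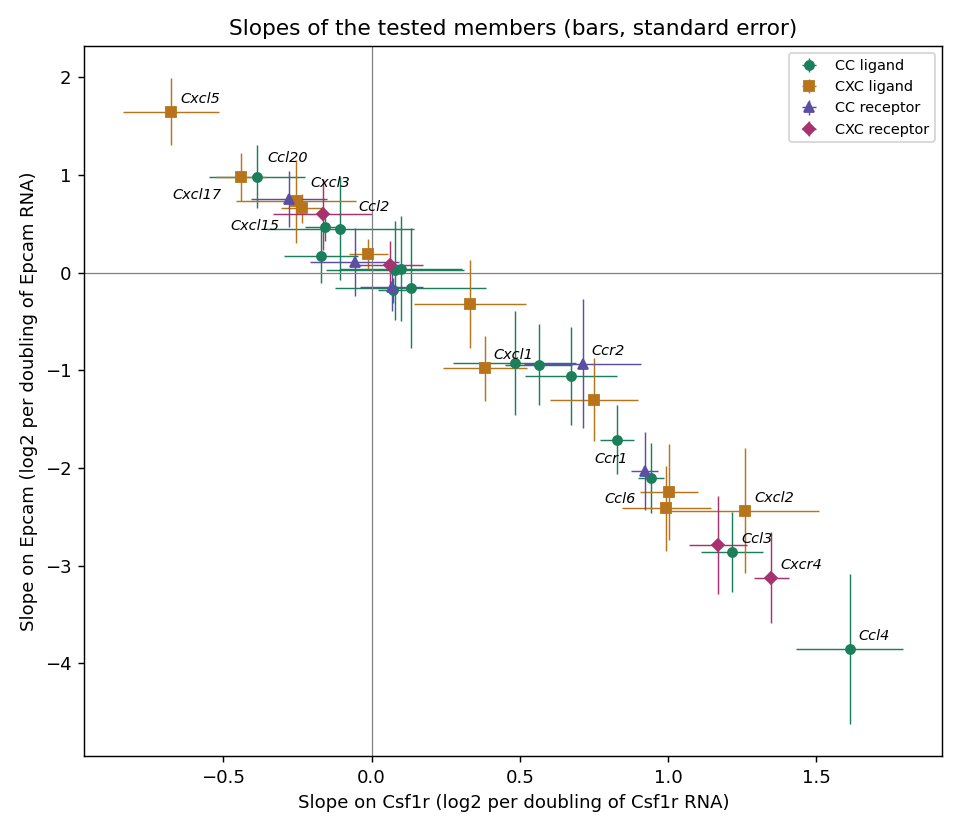
Slope on Csf1r (horizontal) against slope on Epcam (vertical) for the 35 plotted members, each in log2 units per doubling, with standard errors as bars and the class shown by the symbol. Ccl4, Cxcr4 and Ccl3 lie at the lower right with slopes on Csf1r of 1.61, 1.35 and 1.22, and Cxcl5 lies at the upper left with -0.68 on Csf1r and 1.65 on Epcam; both axes were fitted on the same tumors.

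The slopes mostly described the step between the 7 tumors high in Csf1r and the 7 low in it. With a term for these clusters added to the fit, after the data had been seen, 4 members still rose with Csf1r, against 1.35% of all genes, and 0 fell, against 0.0119%. The 4 were Ccl6 (slope 0.89, adjusted p = 0.0057), Ccr1 (0.94, adjusted p = 0.0036), Cxcr4 (1.01, adjusted p = 0.0071) and Ccl9. Within the 7 tumors low in Csf1r, with the genotype means removed, Pearson's r with Csf1r was 0.984 for Ccr1 (exact permutation p = 0.00694, two-sided, the smallest that 144 permutations can give) and 0.974 for Cxcr4 (exact permutation p = 0.0139). Spearman's rho was 0.964 for Ccr1 and 0.929 for Cxcr4 (exact permutation p = 0.0139 for each), and r was 0.982 and 0.935 without the 2 tumors farthest from the median. Cxcl1 ran the other way in the same 7 tumors, with r = -0.987 and rho = -0.929 (exact permutation p = 0.0139 for each) and r = -0.961 without the 2 farthest tumors. Of the 36 members 6 had an unadjusted exact permutation p under 0.05 for r in these tumors, Cxcl1 with a negative r and Ccl6, Ccl17, Cxcl14, Ccr1 and Cxcr4 with a positive one. Adjusted over all genes, the exact permutation p for r was 0.606 for Ccr1 and 0.664 for Cxcr4, Cxcl1 and Cxcl14. It was 0.691 for Ccl6 and Ccl17. The adjusted exact permutation p for rho was 0.711 for Ccr1, Cxcr4 and Cxcl1. Within the 7 tumors high in Csf1r, r was 0.108 for Ccr1 and 0.900 for Cxcr4 (exact permutation p = 0.743 and 0.132), and rho was 0.179 and 0.786 (exact permutation p = 0.722 and 0.125). Cxcl1 there had r = 0.798 and rho = 0.821 (exact permutation p = 0.215 and 0.0903). The members there with an unadjusted exact permutation p under 0.05 for r were Ccl9, Ccr7 and Cxcl10, each with a positive r. Adjusted over all genes, these exact permutation p-values were 0.694 for Ccl9 and 0.582 for Ccr7 and Cxcl10. The share of all genes with an unadjusted p under 0.05 was not counted in either set of tumors. With Epcam as a further term in place of the clusters, 12 members rose with Csf1r, against 6.29% of all genes, and 0 fell, against 0.843%. Cxcl1, Cxcl2, Cxcl9 and Cxcl10, which rose along Csf1r without this term, were not called with it. No member was called on Epcam once the clusters were in the fit, where 1.12% of all genes rose with Epcam and 0.0832% fell. Nor was any called with Csf1r in the fit, where 0.505% of all genes rose and 0.0178% fell.

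Of the 6 members that rose along Epcam, 3 were CXC ligands. Cxcl15 had a lowest, median and highest level of 813, 1443 and 2579 CPM in KPY-Ctrl, against 595, 1328 and 4344 CPM in KPY-Setd2KO. It was abundant in every tumor, with a 7.31-fold range where Ccl6 had a 58.0-fold range. Its slope was 0.66 on Epcam (SE 0.15, adjusted p = 0.0020) and -0.23 on Csf1r (SE 0.07, adjusted p = 0.013). The latter turned to 0.20 within the clusters and 0.051 with Epcam in the fit, neither of which was called (adjusted p = 0.91 and 0.89). Cxcl17, a chemokine of mucosal surfaces, spanned 3.68 to 52.6 CPM in the KPY-Ctrl tumors and 3.15 to 27.5 CPM in the KPY-Setd2KO tumors. It fell along Csf1r by 0.44 per doubling (SE 0.08, adjusted p = 0.00042), and none of its 7 highest tumors was among the 7 highest in Csf1r. Cxcl17 and Cxcl5 were described after their values had been seen, as were Cxcl3 and Ccl2 below.

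Ccl20, which epithelium releases and which binds Ccr6, lay between 0.716 and 1.66 CPM in KPY-Ctrl and reached 30.5 CPM in KPY-Setd2KO replicate 7. It rose along Epcam with a slope of 0.98 (SE 0.32, adjusted p = 0.018), which was 0.64 without KPY-Setd2KO replicate 7, and without KPY-Setd2KO replicate 4 the adjusted p was 0.054. Ccl27a, a ligand of Ccr10 made by epithelium, had a slope of 0.46 on Epcam (SE 0.14, adjusted p = 0.013) and overlaps Il11ra1 on the opposite strand. Ccr4 was also called on Epcam, with a slope of 0.75 (SE 0.28, adjusted p = 0.036), but without KPY-Ctrl replicate 3 or any one of KPY-Setd2KO replicates 1, 2, 3, 7 and 8 its adjusted p was 0.052 to 0.14.

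A run of CXC ligand genes on chromosome 5 shows how far neighboring genes differed. Cxcl5, Cxcl3, Cxcl15, Cxcl1 and Cxcl2 lie in this order on the plus strand of GRCm38 between 90759360 and 90905938. Cxcl1, Cxcl2, Cxcl3 and Cxcl5 are neutrophil attractants that act through Cxcr2, and their transcription is known to respond to NF-kB. The 250 bases before the RefSeq start are printed here for the genes of this run that have a promoter entry, because their levels diverged between the same tumors. Capitals mark the letters GGGNNNTTCC on either strand, which resemble the sequence NF-kB binds, and overlapping matches run together. The build is GRCm38.p6.
Cxcl3, chr5:90785851-90786100, plus strand: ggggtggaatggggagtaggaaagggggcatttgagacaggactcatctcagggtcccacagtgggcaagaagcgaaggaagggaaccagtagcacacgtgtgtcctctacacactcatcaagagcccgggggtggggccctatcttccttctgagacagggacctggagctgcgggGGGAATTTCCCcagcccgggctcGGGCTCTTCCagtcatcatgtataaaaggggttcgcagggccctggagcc
Cxcl15, chr5:90794284-90794533, plus strand: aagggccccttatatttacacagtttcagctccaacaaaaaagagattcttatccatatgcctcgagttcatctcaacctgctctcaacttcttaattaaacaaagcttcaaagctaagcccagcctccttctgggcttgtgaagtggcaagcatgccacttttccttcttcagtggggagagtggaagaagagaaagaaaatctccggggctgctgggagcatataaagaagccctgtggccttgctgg
Cxcl1, chr5:90890995-90891244, plus strand: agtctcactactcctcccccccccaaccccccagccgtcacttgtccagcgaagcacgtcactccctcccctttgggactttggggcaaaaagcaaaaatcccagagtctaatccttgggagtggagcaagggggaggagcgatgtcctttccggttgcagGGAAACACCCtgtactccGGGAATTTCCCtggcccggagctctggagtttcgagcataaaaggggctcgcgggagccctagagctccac
Cxcl2, chr5:90903649-90903898, plus strand: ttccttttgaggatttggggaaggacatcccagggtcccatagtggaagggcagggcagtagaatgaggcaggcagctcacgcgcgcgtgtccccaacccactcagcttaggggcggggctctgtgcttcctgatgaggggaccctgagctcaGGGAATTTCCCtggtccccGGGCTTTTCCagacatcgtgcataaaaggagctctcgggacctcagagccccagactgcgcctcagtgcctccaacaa

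Cxcl1, Cxcl2 and Cxcl3 each held 3 matches to these letters within 100 bases of the start, with 2 of the 3 overlapping, and Cxcl15 held none. Of 38 members with a promoter window 8 held the letters (21.1%), as did 1527 of 32851 windows of the same length (4.65%). The others were Ccl1, Ccl9, Ccl20, Ccr3 and Cxcl10. The window of Ccl1 lay 125878 bases from the start of that gene in the GENCODE annotation. Cxcl5 was among the members with no window. The match is a description of the sequence and does not show binding.

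Cxcl2 and Cxcl3, which hold the same letters, differed in the tumors. Cxcl2 had a lowest, median and highest level of 0.366, 7.69 and 1474 CPM in KPY-Ctrl, against 6.42, 97.1 and 847 CPM in KPY-Setd2KO, with 1 tumor below 0.5 CPM. It was highest in tumors high in Csf1r, except KPY-Ctrl replicate 6 with 13.1 CPM, and its slope on Csf1r was 1.26 (SE 0.25, adjusted p = 0.00069). Cxcl1 spanned 2.95 to 101 CPM in the KPY-Ctrl tumors and 12.1 to 188 CPM in the KPY-Setd2KO tumors. Its slope on Csf1r was 0.38 (SE 0.14, adjusted p = 0.033), and the adjusted p was 0.051 to 0.074 without any one of KPY-Ctrl replicates 1, 3, 4 and 5 and KPY-Setd2KO replicate 4. Within the clusters the slope of Cxcl1 turned to -0.73 (adjusted p = 0.76). Cxcl3 was instead highest in KPY-Setd2KO replicates 5 and 6, at 251 and 277 CPM, and was at 63.8 CPM or less elsewhere. Cxcl5 was at 185 and 170 CPM in the same pair of tumors and at 19.5 CPM or less elsewhere, a 146-fold range. These were the tumors with the least and the third least Csf1r.

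KPY-Setd2KO replicates 5 and 6 also stood apart in other ways. Their summed level of 8 dendritic cell markers was 91.4 and 101 CPM, against 25.2 CPM or less in the other 12 tumors. Of that list, Fscn1, an actin-bundling protein that carcinoma cells can also express, reached 96.4 CPM. No other gene of the list passed 4.57 CPM in any tumor. In this pair of tumors Ccl2, which recruits monocytes through Ccr2, was at 39.4 and 22.9 CPM, the highest of all tumors. Its relative Ccl7 was at 2.60 and 3.05 CPM. The summed neutrophil markers were at 106 CPM in KPY-Setd2KO replicate 6 and 24.9 CPM in replicate 5, and at 3.94 to 41.2 CPM in the other tumors low in Csf1r. Of these markers Ltf, which fell along Csf1r, had a median of 0.438 CPM over all tumors and a highest level of 73.0 CPM. Ly6g and Camp did not pass 0.0607 and 0.208 CPM in any tumor. The part of these markers in the chemokine levels was not tested.

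**Figure D3:**
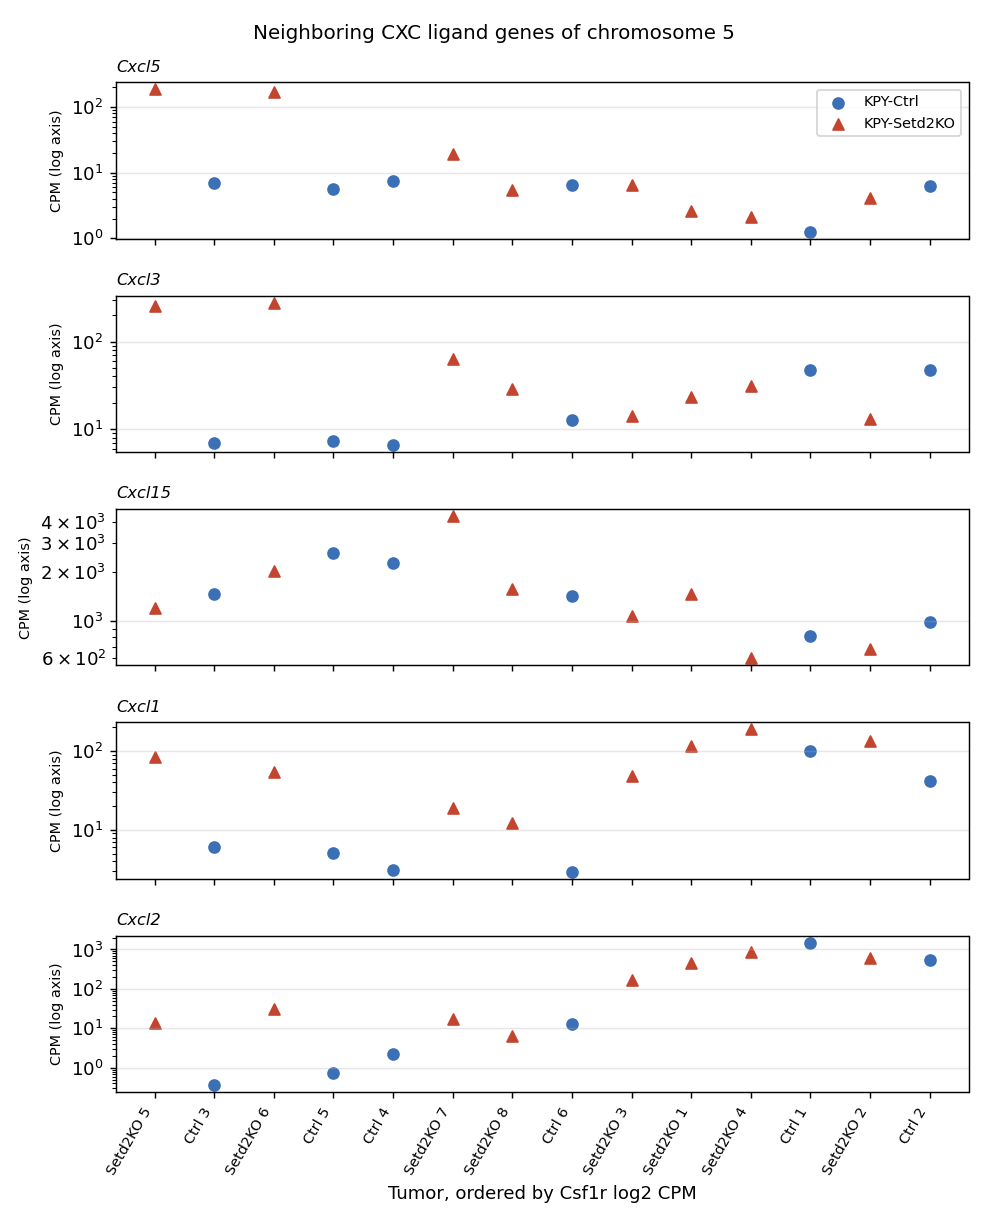
CPM (log axis) of Cxcl5, Cxcl3, Cxcl15, Cxcl1 and Cxcl2 in each tumor, from the lowest Csf1r on the left to the highest on the right (blue circles KPY-Ctrl, red triangles KPY-Setd2KO). Cxcl2 climbs to the right, up to 1474 CPM, Cxcl15 stays between 595 and 4344 CPM in all tumors, and Cxcl5 and Cxcl3 peak in KPY-Setd2KO replicates 5 and 6.

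The genotypes were compared over all 14 tumors. By edgeR's quasi-likelihood test 0 of 36 members had an adjusted p under 0.05, as had 0% of the 16836 genes tested. At an unadjusted p under 0.05 there were 8 of 36 members, against 13.7% of all genes, and all 8 were higher in KPY-Setd2KO: Cxcl3, Cxcl5, Cxcl16, Ccl20, Ccl24, Ccr4, Ccr9 and Cxcr2. DESeq2 called 2 members, Ccl20 and Cxcl5, against 2.63% of all genes. In every tested member the range of KPY-Setd2KO overlapped that of KPY-Ctrl, while 0.57% of all genes did not overlap. The median log2 fold change was 0.51 over the members and 0.03 over all genes, and 27 of 36 members lay above 0, as did 52.7% of all genes.

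Cxcl5 had the highest log2 fold change of the members, 3.11 (SE 1.14, adjusted p = 0.25). Its mean was 5.72 ± 2.26 CPM (SD, n = 6) in KPY-Ctrl, against 49.5 ± 79.4 CPM (SD, n = 8) in KPY-Setd2KO, whereas the medians were 6.41 and 5.91 CPM. KPY-Setd2KO replicates 5, 6 and 7 lay above all KPY-Ctrl tumors, and the other KPY-Setd2KO tumors lay within their range. Ccl20 averaged 1.11 ± 0.345 CPM (SD, n = 6) in KPY-Ctrl, against 6.45 ± 9.95 CPM (SD, n = 8) in KPY-Setd2KO, with a log2 fold change of 2.53 (SE 0.81, adjusted p = 0.20) that was 1.44 without KPY-Setd2KO replicate 7. KPY-Setd2KO replicates 5 to 8, with 4.59 to 30.5 CPM, lay above all KPY-Ctrl tumors.

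For Cxcl16, a membrane-bound ligand of Cxcr6, the SE was smaller. The KPY-Ctrl tumors lay between 23.5 and 83.0 CPM (39.3 ± 22.3, SD, n = 6) and the KPY-Setd2KO tumors between 47.0 and 118 CPM (74.8 ± 27.5, SD, n = 8). The log2 fold change was 0.93 (SE 0.32, adjusted p = 0.23). Its exons overlap those of Zmynd15 on the opposite strand, and its receptor Cxcr6 did not pass the filter on low counts. Cxcr2 averaged 5.72 ± 4.81 CPM (SD, n = 6) in KPY-Ctrl, against 16.1 ± 11.3 CPM (SD, n = 8) in KPY-Setd2KO, with a log2 fold change of 1.49 (SE 0.53, adjusted p = 0.24). The members along Csf1r showed wide spread within each genotype: the log2 fold change was 0.46 for Ccl6 (SE 1.03), 0.55 for Cxcr4 (SE 1.39) and -0.32 for Ccr1 (SE 0.99), with adjusted p-values from 0.898 to 0.931. With Csf1r or Epcam as a covariate no member passed both thresholds, an adjusted p under 0.05 and a log2 fold change beyond 1, whereas 2.96% and 1.78% of all genes did.

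**Figure D4:**
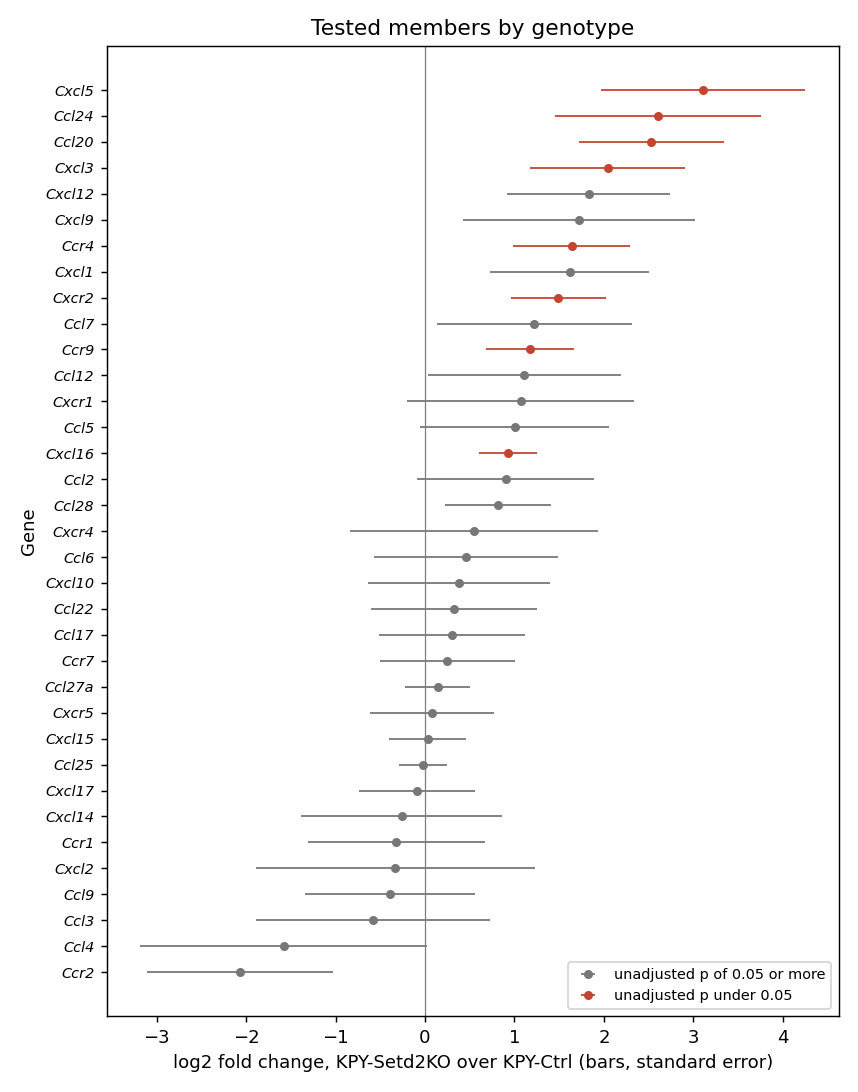
Log2 fold change of KPY-Setd2KO over KPY-Ctrl for the 35 plotted members, with standard errors as bars; red marks the 8 with an unadjusted p under 0.05. The values run from -2.07 for Ccr2 to 3.11 for Cxcl5, and none had an adjusted p under 0.05.

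Whether the relation to Csf1r differed between genotypes was tested with an interaction term. It was called for 2 members, Cxcl3 and Ccl2, against 0.541% of all genes. In KPY-Ctrl, Cxcl3 was at 47.1, 47.4 and 12.8 CPM in the tumors high in Csf1r and at 6.59 to 7.33 CPM in those low in it. In KPY-Setd2KO the former tumors held 13.0 to 31.0 CPM and the latter 28.6 to 277 CPM. The slope on Csf1r was 0.50 in KPY-Ctrl (SE 0.10, adjusted p = 0.0027) and -0.64 in KPY-Setd2KO (SE 0.09, adjusted p = 5.1e-05), a difference of -1.13 (adjusted p = 0.0057). The call held without any one tumor (largest adjusted p 0.035) and without both KPY-Setd2KO replicates 5 and 6 (difference -0.86, adjusted p = 0.029).

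For Ccl2 the slope was 0.97 in KPY-Ctrl (SE 0.17, adjusted p = 0.00083) and -0.49 in KPY-Setd2KO (SE 0.11, adjusted p = 0.0032), a difference of -1.46 (adjusted p = 0.011). Over all tumors its slope was -0.11 (adjusted p = 0.74), which turned to 0.63 (adjusted p = 0.011) without KPY-Setd2KO replicates 5 and 6. Ccl2 lay between 0.151 and 1.36 CPM in the KPY-Ctrl tumors low in Csf1r and between 5.80 and 19.3 CPM in those high in it. Without the same pair of tumors the difference was -0.94 with an adjusted p of 0.057. It was also lost without KPY-Ctrl replicate 2, 3 or 5, with an adjusted p of 0.057 to 0.076. The differences of Cxcl2 (-1.10, adjusted p = 0.13) and Ccl7 (-1.33, adjusted p = 0.13) had the same sign and were not called.

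**Figure D5:**
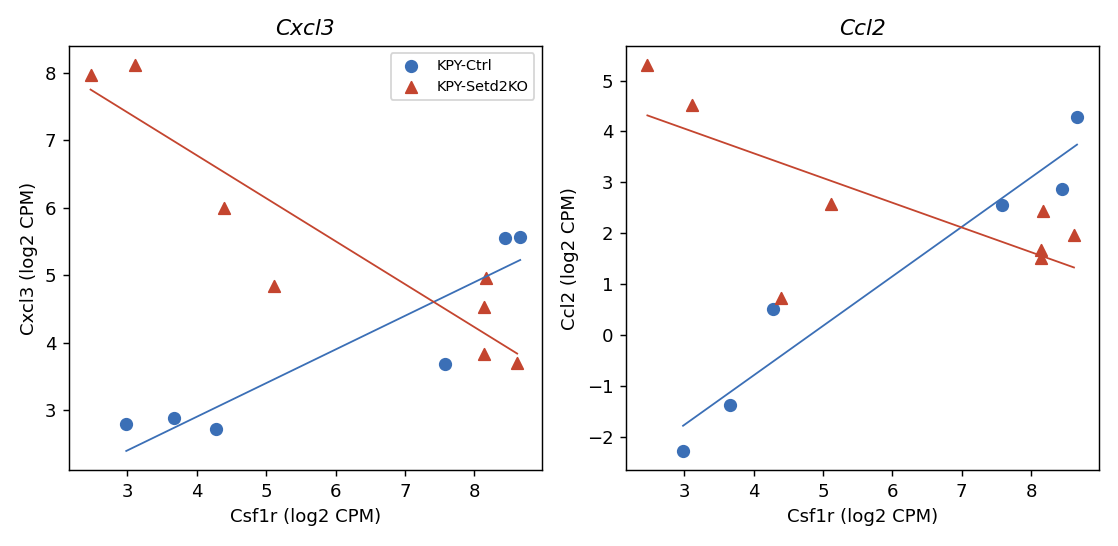
Log2 CPM of Cxcl3 (left) and Ccl2 (right) against log2 CPM of Csf1r in each tumor (blue circles KPY-Ctrl, red triangles KPY-Setd2KO), with lines of the fitted slope of each genotype through its mean. Cxcl3 slopes upward in KPY-Ctrl (0.50) and downward in KPY-Setd2KO (-0.64), where KPY-Setd2KO replicates 5 and 6 lie at the upper left.

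Other genes of the chemokine system were read from lists. Of 12 further chemokines, atypical receptors and related genes 7 were tested. Of these 1 rose and 2 fell along Csf1r, where 28.1% of all genes tested rose and 28.5% fell. Ccrl2, which binds chemerin, rose from 0.482 CPM at the lowest to 221 CPM with a slope of 1.37 (adjusted p = 1.0e-07). Cx3cl1, the membrane-bound fractalkine, and Dpp4, a peptidase that trims chemokines, fell by 0.21 (adjusted p = 0.00015) and 0.27 (adjusted p = 0.0054) per doubling. Among genes of receptor signaling, 13 of 15 tested rose along Csf1r and none fell, including Rac2, a small GTPase of leukocyte migration, with a slope of 0.86 (adjusted p = 2.4e-10), and Dock2, which activates Rac, with 0.87 (adjusted p = 2.6e-10). Arrb1 and Gnai3, which many cell types express, were not called, with slopes of -0.0096 and 0.025.

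Among 12 genes of the NF-kB pathway, 6 rose along Csf1r and none fell, against 28.1% and 28.5% of all genes tested. The inhibitor genes Nfkbia and Tnfaip3, which NF-kB itself induces, had slopes of 0.55 (adjusted p = 6.9e-06) and 0.87 (adjusted p = 1.7e-05), while the subunit genes Rela and Nfkb1 had 0.042 and 0.053 and were not called. Of the cytokines that induce chemokines 5 were tested, and Tnf, Il1a, Il1b and Il6 rose along Csf1r, with slopes from 0.89 for Tnf to 1.61 for Il6. Csf2, the gene of GM-CSF, did not (-0.037, adjusted p = 0.72), and had a log2 fold change of 1.76 between genotypes (adjusted p = 0.12). Ifng, which induces Cxcl9 and Cxcl10, was at 0 in 10 tumors and reached no more than 0.358 CPM. None of the genes of these lists was called by genotype, as was none of the 16836 genes tested.

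Markers of other cells moved with Csf1r in part. Of all genes tested 28.1% rose along Csf1r and 28.5% fell. All 6 common leukocyte markers and 11 of the 14 macrophage markers other than Csf1r rose along it, and all 13 epithelial markers fell. Of the T-cell markers only Cd2 and Cd4 rose among 5 tested, and Cd2 reached 533 CPM where Cd3e did not pass 1.12 CPM. Of 7 neutrophil markers tested 3 rose and 3 fell, of 8 endothelial markers only Vwf rose, and of 7 fibroblast markers only Pdgfra did. B-cell and NK-cell lists had 2 and 1 tested genes, of which Cd79b and Klre1 fell. No erythroid marker was called, and of 4 dendritic cell markers Fscn1 fell.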

How the data were processed

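RNA of 6 KPY-Ctrl and 8 KPY-Setd2KO tumors was sequenced in single-end reads per the study's methods. The deposited values are estimated counts of each Ensembl gene, written as whole numbers and not normalized, which the authors made with Salmon 0.8.2 against GRCm38.p5 according to their processing notes. Of the IDs, 52403 matched the GENCODE M21 annotation of GRCm38, which gave symbols, exon lengths and coordinates. Estimated counts were analyzed with edgeR 4.0.16 in R 4.3.3 (TMM, filterByExpr by genotype, robust quasi-likelihood test, Benjamini-Hochberg adjustment over 16836 genes, or 16835 on Csf1r or Epcam), and with DESeq2 1.42.0 as an alternative. Log2 CPM used a prior count of 2. A slope was called when its adjusted p was below 0.05, while genotype differences needed a log2 fold change beyond 1 in either direction as well. A correlation over all tumors was planned and is not given, because Csf1r split the tumors into clusters. Within each cluster 144 permutations kept the genotypes. Promoters came from RefSeq (GRCm38.p6).

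The members, gene lists, tests and alternatives were chosen with earlier results of these data known. Members named in full were the 3 most abundant per kb in each class and the 3 with the smallest p in each comparison, and others were named after their values were seen. 1 of these members, and 1 allele of the mouse model, are not reported here. The fits by genotype and along Csf1r were tested on simulated counts. Their spread was estimated with Csf1r in the fit, so for the genotype test it left out the split by Csf1r that the real tumors show. Counting error is small for abundant members and larger near 0.5 CPM, and tests used the spread between tumors. Reads of genes with overlapping exons cannot be assigned with certainty, since the strand setting of the counting is not given in the sources used here. This touches Ccl25, Ccl27a, Ccr9, Cxcl10, Cxcl16 and Cxcr5.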

Additional observations from a re-analysis of the deposited data

Results flagged for a closer look

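Cxcl5 in KPY-Ctrl replicate 1, at 0.40 log2 CPM, lay far below the other KPY-Ctrl tumors, which were between 2.53 and 2.91. This was 1 of 72 groups of a member and a genotype examined in this way (1.39%), where chance alone sets apart about 1 in 20.

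The slope on Csf1r differed between the genotypes by the interaction test in 2 members. The slope in KPY-Setd2KO minus that in KPY-Ctrl was -1.13 for Cxcl3 (edgeR, adjusted p = 0.0057) and -1.46 for Ccl2 (adjusted p = 0.011). Without KPY-Setd2KO replicates 5 and 6 the difference of Ccl2 was -0.94 (adjusted p = 0.057).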

How the results depend on the processing

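The sources do not state whether the replicate numbers pair the tumors. Same-numbered tumors of the genotypes correlated between -0.664 and 0.657 in their deviations from the genotype means. These correlations cannot decide the question, because their sign followed the split by Csf1r. They were positive for replicates 1, 2 and 5, whose tumors lay on the same side of it, and negative for 3, 4 and 6, whose tumors did not. With the replicate number as a replicate block 12 members were called along Csf1r, against 18 without it, 2 along Epcam, against 18, and 0 by genotype. The share of all genes called with this block is not given here, so these counts do not show a change particular to the members.

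The count by genotype was 0 under every alternative except DESeq2, with 2. The count along Csf1r was 17 to 24 under other scaling, filters, tools and sets of tumors, 12 with Epcam in the fit and 4 within the clusters of tumors. The count along Epcam was 0 with Csf1r in the fit and 0 within the clusters, and 13 to 20 under the others apart from the replicate block. The number of members whose slope on Csf1r differed by genotype was 1 without KPY-Setd2KO replicates 5 and 6. Without 1 tumor at a time these counts were 18 to 21 along Csf1r, 17 to 20 along Epcam, 0 by genotype and 1 to 3 for the slope difference. The last was 1 without KPY-Ctrl replicate 2, 3 or 5. Where no share of all genes is given for a fit, its count does not show whether the members moved differently from other genes. Members found in every tumor numbered 24 at 10 counts and 14 at 1 CPM, against 18.

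Slopes on Csf1r that changed sign were not called in the fit where they did so, except for Cxcl3 in KPY-Ctrl alone and Ccl2 without KPY-Setd2KO replicates 5 and 6. Within the clusters the slope was 0.199 for Cxcl15, -0.73 for Cxcl1, -0.581 for Cxcr2, 0.388 for Ccl20 and 0.251 for Cxcl16. With Epcam in the fit it was 0.051 for Cxcl15, 0.052 for Ccl20, 0.274 for Cxcl16, 0.176 for Cxcl3 and 0.385 for Ccl2. In KPY-Setd2KO alone it was -0.147 for Cxcr2, and in KPY-Ctrl alone 0.169 for Cxcl16 and 0.496 for Cxcl3. Without KPY-Setd2KO replicates 5 and 6 it was 0.015 for Cxcl16, 0.18 for Cxcl3 and 0.632 for Ccl2. It was -0.008 for Cxcr2 on library size alone and 0.126 for Ccl2 with the replicate block. Without 1 tumor it ran from -0.087 to 0.017 for Cxcl16 and from -0.246 to 0.117 for Ccl2. The slope of Ccl6 on Epcam was 0.144 with Csf1r in the fit. The cause of these changes was not tested.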
